A study of Mus musculus with 3 samples.

Results

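Differentiating spermatogonia are the germ cells of the testis that have left the stem and progenitor pool and divide towards meiosis. In single-cell RNA libraries from 3 mouse testis samples, 223 of 22033 cells were taken as this cell type by a rule on measured genes. A cell needed at least 1000 UMIs (unique molecular identifiers, 1 per captured RNA molecule) and at most 20% of them from mitochondrial genes. It then needed at least 3 of the 5 germ cell genes Dmrt1, Sall4, Uchl1, Dazl and Ddx4, and fewer than 3 of the 6 meiotic genes Dmc1, Prdm9, Meiob, Hormad1, Tex101 and Prss50. The rest turned on a pair of detection counts. U is the number detected of the 6 undifferentiated-state genes Gfra1, Zbtb16, Etv5, Ret, Lhx1 and Egr4, and D is the number detected of the 6 differentiation genes Kit, Stra8, Dmrtb1, Rhox13, Sohlh1 and Crabp1. Cells with D of at least 2 and no lower than U were kept. Because the rule read these genes, their levels in the chosen cells describe the choice and are no result of it.

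All mice had received busulfan, a DNA-alkylating agent used to deplete the germ line. The library labelled PBS+Busulfan came from mice given saline, the library labelled EXO+Busulfan from mice given blood exosomes, which are secreted vesicles, of wild-type origin, and the library labelled dEXO+Busulfan from mice given blood exosomes of mice with an intestinal microbiota imbalance. They are called PBS, EXO and dEXO here. Strain, age, dose, time after treatment and how many animals each library drew on are not given in the sources used here. Each group is 1 library, so differences between libraries could not be tested, and each 95% interval covers counting error only. The libraries held between 91787154 and 97253862 UMIs.

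In the seminiferous epithelium, retinoic acid drives undifferentiated spermatogonia into differentiation. The cells then carry the receptor tyrosine kinase KIT, whose ligand comes from Sertoli cells, and a later pulse of retinoic acid induces STRA8 on the way into meiosis. SOHLH1 is a transcription factor of early differentiation, DMRTB1 (also called DMRT6) helps the mitotic programme give way to the meiotic one, RHOX13 is an X-linked homeobox protein of differentiating germ cells, and CRABP1 binds retinoic acid in the cytoplasm.

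The upstream regions of Sohlh1 and Dmrtb1 are shown because these genes were unlike each other among the chosen cells: Sohlh1 was found in the spermatogonial portion and was close to 0 in a portion with genes of later germ cells, where Dmrtb1 was highest. Both are genes of the rule, so this contrast describes the choice of cells. The sequences are the 250 bases before the RefSeq start of each gene in GRCm38.p6, and neither overlaps an annotated exon. Sohlh1 (ENSMUSG00000059625) is a protein-coding gene at chr2:25842995-25847248 on the minus strand, and its window is chr2:25847249-25847498, minus strand. Capitals mark AGGTCA, a receptor half-site motif, and CANNTG, the E-box that basic helix-loop-helix factors such as SOHLH1 can bind.

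Sohlh1: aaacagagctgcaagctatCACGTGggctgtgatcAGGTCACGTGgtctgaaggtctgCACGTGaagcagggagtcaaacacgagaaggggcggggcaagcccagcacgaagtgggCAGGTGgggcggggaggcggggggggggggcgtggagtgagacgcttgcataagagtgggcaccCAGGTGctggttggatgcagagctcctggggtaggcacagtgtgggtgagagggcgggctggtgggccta

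The Sohlh1 window held 5 matches to CANNTG and 1 to AGGTCA, which shares bases with a CANNTG match. Dmrtb1 (ENSMUSG00000028610) is a protein-coding gene at chr4:107676290-107684230 on the minus strand. It has 2 RefSeq starts, and the window at the one that matches the end of the annotated gene is chr4:107684231-107684480, minus strand. Capitals mark CANNTG.

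Dmrtb1: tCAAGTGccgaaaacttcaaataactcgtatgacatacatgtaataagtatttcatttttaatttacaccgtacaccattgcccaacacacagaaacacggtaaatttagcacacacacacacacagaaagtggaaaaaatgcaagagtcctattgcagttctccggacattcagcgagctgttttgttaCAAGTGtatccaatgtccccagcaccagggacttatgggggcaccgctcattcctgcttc

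This Dmrtb1 window held 2 matches to CANNTG and none to AGGTCA. Both motifs were searched on both strands, and the palindromic CANNTG was counted once per position. Of 32536 windows of 250 bases in the RefSeq table, 66.2% held CANNTG and 14% held AGGTCA. Among the other differentiation genes, the Rhox13 window held 1 CANNTG match, and the windows of Kit and Crabp1 held neither. The RefSeq window of Stra8 lies wholly within annotated exon bases and is not shown. It held 2 matches to AGGTCA and none to CANNTG. The Kit windows overlap annotated exons by 71 and 75 bases. A match is a description of letters and no evidence of binding.

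The name differentiating spermatogonia did not hold for all of the chosen cells. For the others it rests on the genes of the rule, and whether shallow early meiotic cells were among them was not tested. A summed level of 14 late genes (6 of late spermatocytes and 8 of spermatids) of at least 30 UMIs per 10000 was found in 46 cells (20.6%): PBS held 4 of them, EXO 10 and dEXO 32. These late-type cells were large: their median was 129878 UMIs, and they supplied 73.3% of all UMIs of the chosen cells, with 85% in PBS, 76.5% in EXO and 69.2% in dEXO. Another 21 cells (1, 4 and 16), none of them late-type, carried a somatic marker list at 30 per 10000 or more. This was most often the Leydig list (11 cells) or the Sertoli list (8 cells). Some late-type cells passed this limit too and were left among the late-type. Among them, 1 cell from PBS reached 289 per 10000 and 1 from dEXO 168. The remaining 156 cells (15 from PBS, 32 from EXO, 109 from dEXO) are called the core cells below. The limit of 30 was set after these levels had been seen; 1 chosen cell lay between 20 and 30 for the late genes and 1 between 30 and 40.

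The 2 portions differed widely in the genes of the rule. In the core cells the differentiation genes without Dmrtb1 together ran from 2.59 to 38.6 UMIs per 10000 with a median of 14.1. In the late-type cells they ran from 0.0413 to 12.2 with a median of 0.134. Dmrtb1, left out of these sums, was far higher in the late-type cells, as given below. Of the 46 late-type cells, 33 had a D of exactly 2, the lowest value the rule accepts, and 2 had a D of at least 4. Of the 156 core cells, 12 had a D of 2 and 123 had a D of at least 4. Late-type cells were also low in mitochondrial UMIs, with a median of 0.103% against 2.47% in the core cells.

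**Figure D1:**
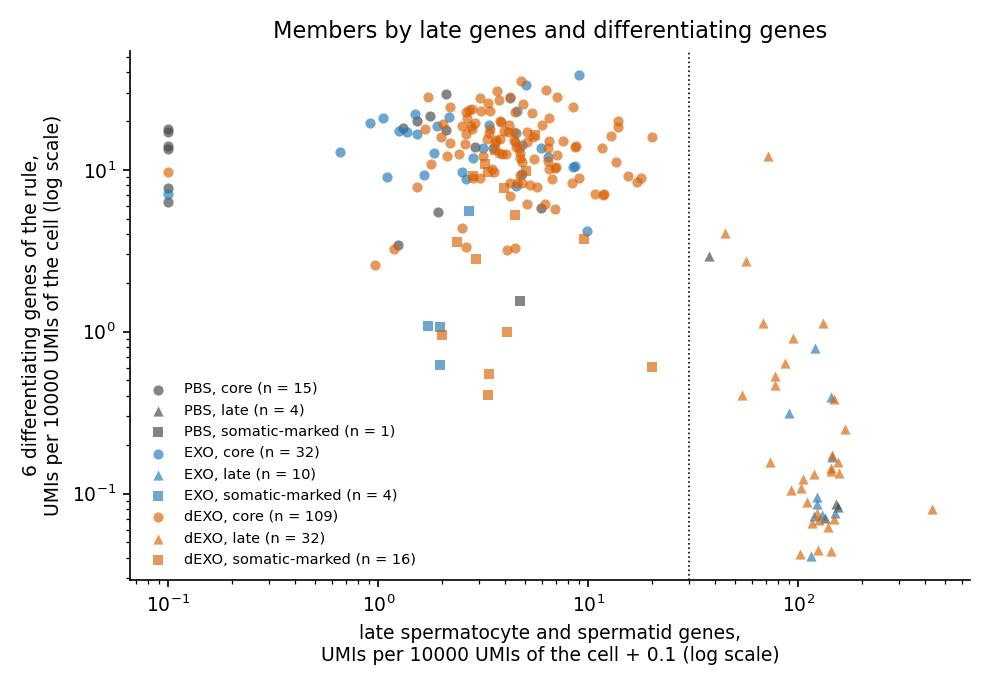
Each point is 1 chosen cell. The x axis is the summed level of the late spermatocyte and spermatid genes. The y axis is that of the differentiation genes without Dmrtb1, although its label names 6 genes. Both are in UMIs per 10000 UMIs of the cell on log scales. The dotted line marks 30; the 46 late-type cells (triangles) lie to its right and mostly low, and the 156 core cells (circles) lie high to its left.

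Just outside the rule, 120 germ cells with fewer than 3 meiotic genes had a D of 1. Of these, 68 were late-type, 45 carried somatic markers and 7 were neither. Just inside, 62 cells had a D of 2, of which 57 were chosen and 14 were neither late-type nor marked by somatic genes. The share of core-like cells was higher again at a D of 3, with 23 of 37.

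Within the core, cells varied in how many undifferentiated and meiotic genes they held. No U gene was detected in 67 core cells, 1 in 59 and at least 2 in 30. Of the 6 meiotic genes, none was detected in 14 cells, 1 in 54 and 2 in 88. Zbtb16, which encodes the progenitor factor PLZF, was the U gene found most often: it was detected in 7 of the 15 cells from PBS (46.7%), in 9 of the 32 from EXO (28.1%) and in 56 of the 109 from dEXO (51.4%). Gfra1, the GDNF receptor of stem cells, had no UMI in the core cells of PBS and EXO and stood at 5.22 CPM in dEXO. CPM is the summed count of a group of cells scaled to a total of 1000000.

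Markers of other cell types in the core cells were low, with the Leydig and late spermatocyte lists the highest. The Leydig list summed to 307 CPM in PBS, 307 in EXO and 276 in dEXO, against 32060, 35000 and 30970 in cells with no germ gene. The Sertoli list was at 0 in PBS, 45.7 in EXO and 77.6 in dEXO, and the late spermatocyte list stood at 102, 212 and 330 CPM in the same order. The spermatid list stood at 22.2, 75.3 and 108 CPM and the stroma list at 22.2, 75.3 and 124. Myoid markers were at 0 in all 3 libraries, endothelial markers at 0 in PBS and EXO and at 5.22 CPM in dEXO, and macrophage markers at 17.8, 0 and 5.87. The T or NK list stood at 4.45, 45.7 and 4.57 CPM, with 15 of its 17 EXO UMIs in 1 cell. Sertoli, stroma and late germ cell genes thus followed the order PBS, EXO, dEXO in the core cells, and their part in the differences below was not tested.

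The chosen cells made up a larger share of the dEXO library than of the other libraries. PBS held 20 among 5052 cells (0.396%, exact Clopper-Pearson interval 0.242 to 0.611). EXO held 46 among 8981 (0.512%, 0.375 to 0.683), and dEXO held 157 among 8000 (1.96%, 1.67 to 2.29). The intervals of PBS and EXO overlap, and that of dEXO lies above both. For the core cells alone PBS stood at 0.297% (0.166 to 0.489), EXO at 0.356% (0.244 to 0.503) and dEXO at 1.36% (1.12 to 1.64). The order did not change with the late-type and somatically marked cells left out.

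Germ cells as a whole were also more numerous in dEXO, so shares among germ cells differed less. Cells with at least 3 germ genes numbered 138 for PBS, 292 for EXO and 698 for dEXO. The core made up 10.9% of these for PBS (interval 6.21 to 17.3), 11% for EXO (7.62 to 15.1) and 15.6% for dEXO (13 to 18.5), and the intervals overlap. Beside the early meiotic cells, defined by at least 3 of the 6 meiotic genes and freed of late-type and somatically marked cells in the same way, the core cells were 15 of 101 for PBS (14.9%, 8.56 to 23.3), 32 of 201 for EXO (15.9%, 11.2 to 21.7) and 109 of 407 for dEXO (26.8%, 22.5 to 31.4). The odds of a core cell against an early meiotic cell in dEXO were 2.09 times those in PBS (exact interval 1.14 to 4.08) and 1.93 times those in EXO (1.23 to 3.09). For EXO against PBS the ratio was 1.09 (0.537 to 2.28). These groups are split by detection of meiotic genes, which depends on depth. The early meiotic cells had median UMIs of 28399 in PBS, 19571 in EXO and 16601.5 in dEXO, and the core cells 11116, 10800 and 12679. The part of depth in these odds was not tested.

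**Figure D2:**
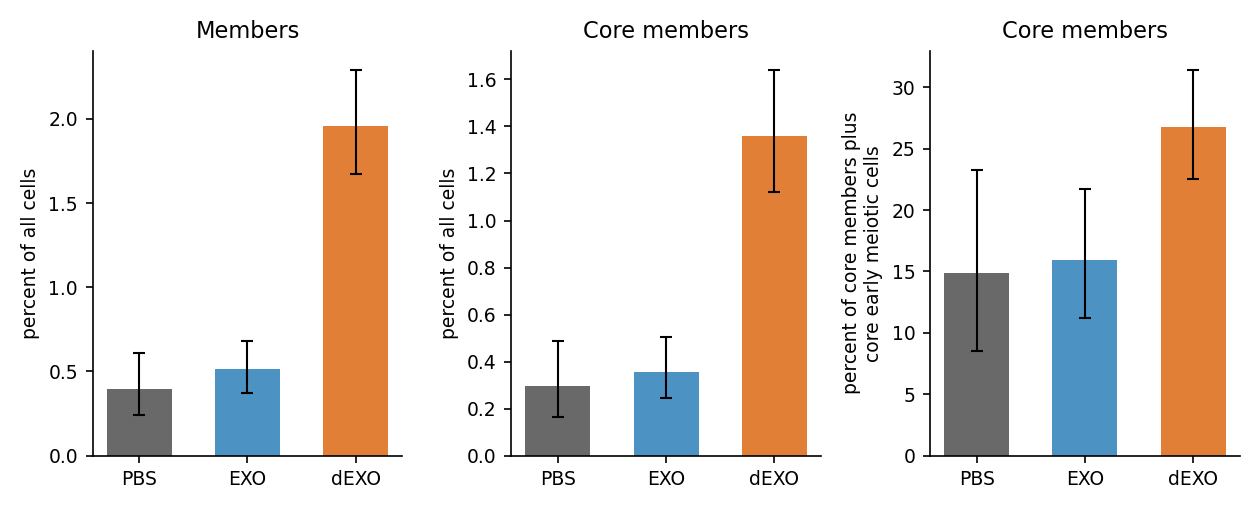
Bars give, for each library, the chosen cells as a percent of all cells, the core cells as a percent of all cells, and the core cells as a percent of core plus early meiotic cells; error bars are exact 95% intervals that cover counting error only. dEXO is highest in all 3 panels, at 1.96%, 1.36% and 26.8%.

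Depth bears on these shares, because the rule reads detection. The median cell of the whole library had 9348 UMIs in PBS, 3641 in EXO and 3911 in dEXO, whereas the median chosen cell had 14628, 14933.5 and 15807. With every cell thinned to 3000 UMIs and shallower cells left out, the shares were 1.085% in PBS, 1.188% in EXO and 3.51% in dEXO. These shares lie above those at full depth (0.396%, 0.512% and 1.96%). Thinning lowers detection, so cells over the limit on meiotic genes at full depth can fall under it and enter. Leaving out shallower cells also changes the total. The thinned set is thus not the chosen cells at equal depth, and how far the sets overlap was not tested. dEXO was highest in the thinned set too.

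Kit, at chr5:75574916-75656722, had overlapping intervals in the core cells of the 3 libraries. It stood at 276 CPM (exact Poisson interval 212 to 354) in PBS, 250 (202 to 306) in EXO and 209 (187 to 233) in dEXO. At least 1 Kit UMI was found in 80%, 81.2% and 84.4% of core cells. Kit is no germ-specific marker in testis, since Leydig cells carry the receptor too: cells with no germ gene held 171, 204 and 218 CPM of it. With all cells thinned to 3000 UMIs, a Kit UMI was found in 40%, 64.5% and 50.9% of core cells and in 22.4%, 31% and 38.1% of cells with no germ gene. Early meiotic cells held 163, 141 and 144 CPM, below the core cells in each library.

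Stra8 (ENSMUSG00000029848), at chr6:34920163-34939344 on the plus strand, was at 881 CPM (763 to 1013) in the core cells of PBS, 635 (556 to 721) in EXO and 564 (527 to 603) in dEXO. One PBS cell carried 80 of the 198 PBS UMIs. Without the highest cell of each library the levels were 639, 593 and 553, and the log2 ratio of EXO to PBS moved from -0.47 to -0.11. Per cell, Stra8 had medians of 5.02, 6.43 and 3.2 UMIs per 10000, with highest values of 20, 29.7 and 21.8, so the libraries overlapped over nearly their whole range. Early meiotic cells held 585, 648 and 735 CPM, and late-type cells 0, 0.652 and 4.83. Stra8 was thus far higher in the core than in the late-type cells, and lower than or close to the early meiotic level in EXO and dEXO. A Stra8 UMI was found in 93.3%, 81.2% and 78% of core cells and in 0.572%, 1.42% and 2.67% of cells with no germ gene; thinned to 3000 UMIs the shares were 73.3%, 61.3% and 55.7% against 0.158%, 0.613% and 1.63%.

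Crabp1, at chr9:54764748-54773110, stood at 369 CPM (294 to 458) in PBS, 452 (386 to 526) in EXO and 503 (468 to 540) in dEXO core cells. Its per-cell medians were 2.92, 4.21 and 4.78 UMIs per 10000, against 2.52, 1.63 and 1.78 in early meiotic cells. The dEXO interval lies above that of PBS, although single cells of all 3 libraries ranged from 0 upwards. Sohlh1 stood at 178 (127 to 242), 188 (147 to 238) and 167 (147 to 189) CPM. In early meiotic cells Sohlh1 was at 118, 77.5 and 78 CPM, lower in each library. Late-type cells had no Sohlh1 UMI in PBS and EXO and 1.93 CPM in dEXO.

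Rhox13, at chrX:38121219-38129967, was higher in early meiotic cells than in the core in each library. It stood at 84.5 (50.9 to 132), 75.3 (50 to 109) and 112 (96 to 130) CPM in the core cells and at 205, 253 and 265 in early meiotic cells. Dmrtb1 was low in the core, at 48.9 (24.4 to 87.6) CPM in PBS, 88.7 (61.1 to 125) in EXO and 88 (73.8 to 104) in dEXO, with early meiotic cells at 79.6, 54.8 and 88.5. In late-type cells Dmrtb1 stood at 597, 829 and 716 CPM and was found in every one of the 46 cells. Dmrtb1 was several times higher in the portion that had next to no Stra8, Sohlh1 or Crabp1. The rule needed a D of at least 2, so the detection of Dmrtb1 in all of these cells follows in part from the choice. The contrast describes the chosen cells and is no result of the choice.

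**Figure D3:**
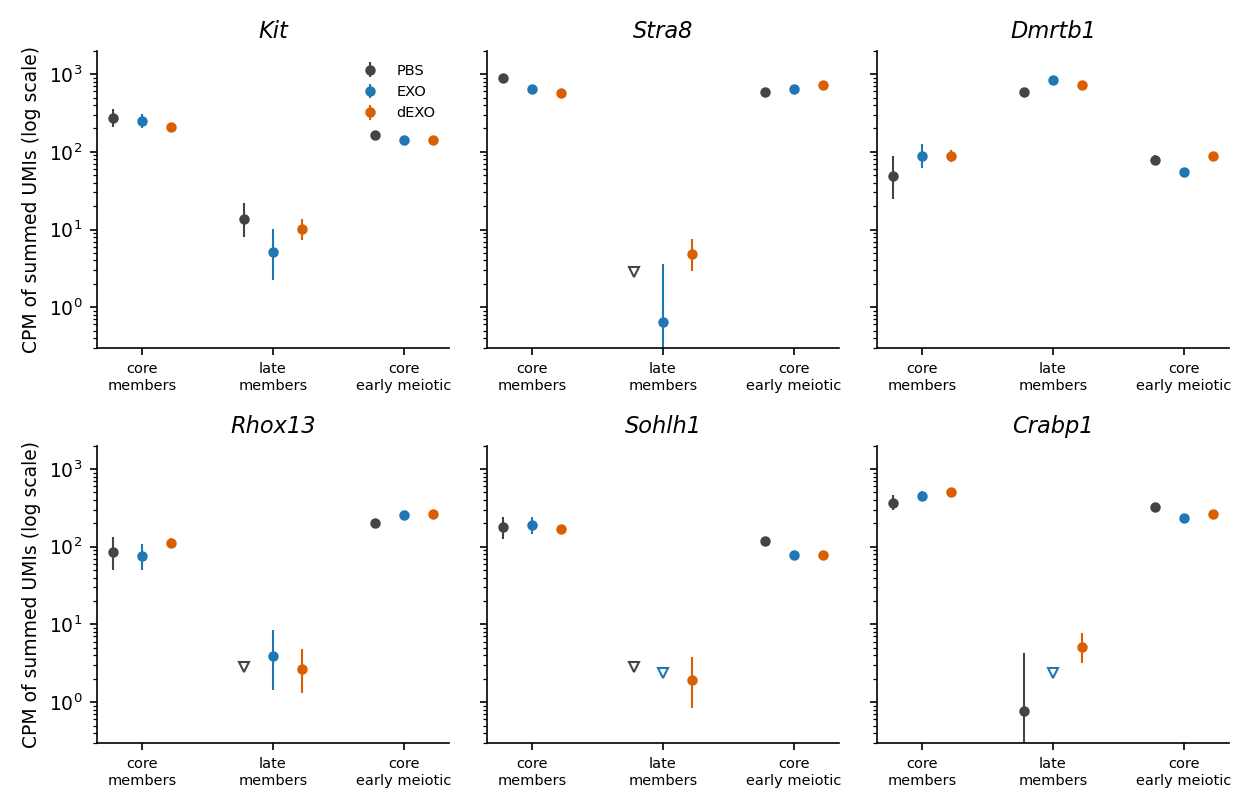
Each panel is 1 differentiation gene; points are CPM of summed UMIs (log scale) in core cells, late-type cells and early meiotic cells of each library, with exact Poisson intervals, and open triangles mark the upper bound where no UMI was found. Stra8, Sohlh1, Crabp1 and Rhox13 are near 0 in late-type cells, and Dmrtb1 is highest there, between 597 and 829 CPM.

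The germ cell genes of the rule were also found in both portions, but not alike. Ddx4, an RNA helicase of all germ cells, stood at 316, 317 and 279 CPM in the core and 242, 223 and 281 in late-type cells. Uchl1, a ubiquitin hydrolase of spermatogonia, stood at 1353, 1108 and 1297 CPM in the core and 3.05, 7.82 and 19.6 in late-type cells. Sall4, a zinc-finger factor of spermatogonia, was at 138, 64.5 and 77 CPM in the core against 42.6, 27.9 and 32.6 in early meiotic cells. Dazl, an RNA-binding protein needed for germ cell development, was at 1500, 1089 and 1346 CPM in the core and 1434, 1443 and 1555 in early meiotic cells. Among the 6 meiotic genes, which the rule limits to 2 per cell, Tex101 was the most often found, at 160, 215 and 154 CPM against 621, 1048 and 959 in early meiotic cells.

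Genes outside the rule were then compared between core and early meiotic cells within each library, as a description of where the chosen cells stand in the sequence. Genes needed 20 UMIs over both groups in every library, which 9782 did. Of these, 104 (1.06%) were at least 2-fold higher in the core cells in all 3 libraries and 201 (2.05%) were at least 2-fold lower. The early meiotic cells were deeper, with a median of 19359 UMIs against 11769, and the groups were separated by detection of meiotic genes.

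The highest genes in the core cells were Prtg, Ddah1, Pate2, Lhx8, Cacng4, Lin28a, Zfp977 and Pou3f1. Lin28a, an RNA-binding protein that blocks let-7 maturation and is known from undifferentiated spermatogonia, stood at 57.8 CPM in PBS, 40.3 in EXO and 48.3 in dEXO, against 18.7, 11.1 and 12.1 in early meiotic cells. Its log2 ratios were 1.63, 1.86 and 1.99. Pou3f1, a POU-domain factor downstream of GDNF signalling, stood at 182, 80.7 and 141 CPM against 62.3, 24.3 and 47.7. Prtg, a cell-surface protein of the immunoglobulin superfamily, stood at 66.7, 35 and 30 CPM against 14.5, 7.75 and 7.74, and Lhx8, a LIM homeobox factor, had log2 ratios of 2.40, 1.86 and 1.99.

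The lowest genes in the core cells were Ly6k, Top2b, Tslrn1, Gnptg, Hist1h2ba, Man2a2, Meioc and Emc7. Ly6k, a GPI-anchored partner of TEX101, stood at 26.7, 32.3 and 32.6 CPM against 222, 438 and 382, with log2 ratios of -3.05, -3.76 and -3.55. Meioc, which acts with YTHDC2 to let germ cells enter and hold meiotic prophase, stood at 57.8, 67.2 and 42.4 CPM against 282, 460 and 422. Its log2 ratios were -2.29, -2.77 and -3.31. Top2b, a DNA topoisomerase, had log2 ratios of -3.14, -2.88 and -2.70, and Hist1h2ba, a testis histone H2B, had -2.50, -2.63 and -3.37.

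Of 17 gene lists, meiotic entry and axis outside the rule had the most genes lower than in early meiotic cells. Of its 35 genes 32 were measured; 11 were at least 2-fold lower (Terb1, with no PBS UMI, at a floor of 3 counts) and none 2-fold higher in all 3 libraries, beside 2.05% and 1.06% of all genes measured. The same shares over all genes, 2.05% lower and 1.06% higher, stand beside the counts of each list compared with early meiotic cells below. For the meiotic entry list the median log2 ratio was -0.64 in PBS, -1.13 in EXO and -1.09 in dEXO, beside -0.05, 0.02 and -0.02 over all genes. The cohesin subunits Smc1b (405, 540 and 560 CPM against 933, 1160 and 1190) and Stag3 (97.9, 129 and 101 against 209, 299 and 253) were among them. The axis protein Sycp2 stood at 57.8, 67.2 and 71.7 CPM against 158, 254 and 248, while its partner Sycp3 at 343, 403 and 352 against 507, 917 and 733 did not reach 2-fold in PBS. Ythdc2, the RNA helicase partner of MEIOC, stood at 62.3, 53.8 and 70.4 CPM against 135, 183 and 152. The core cells carried these RNAs too: the list summed to 3876 CPM in PBS, 4493 in EXO and 4109 in dEXO, beside 6184, 8322 and 7727 in early meiotic cells.

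X-linked germ genes also had a low median in each library, at -0.70, -0.62 and -0.53. Of its 16 measured genes, 2 were at least 2-fold lower in all 3 libraries and none higher. These were Fmr1nb (26.7, 26.9 and 33.9 CPM against 95.5, 159 and 158) and the reproductive homeobox gene Rhox1 (13.3, 29.6 and 18.3 against 34.6, 70.8 and 56.5). The interferon response list, with 11 of 27 genes measured, had medians of -0.56, -0.65 and -0.18 with 1 gene at least 2-fold lower, the class I histocompatibility gene H2-K1 (66.7, 72.6 and 58 CPM against 146, 234 and 236).

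**Figure D4:**
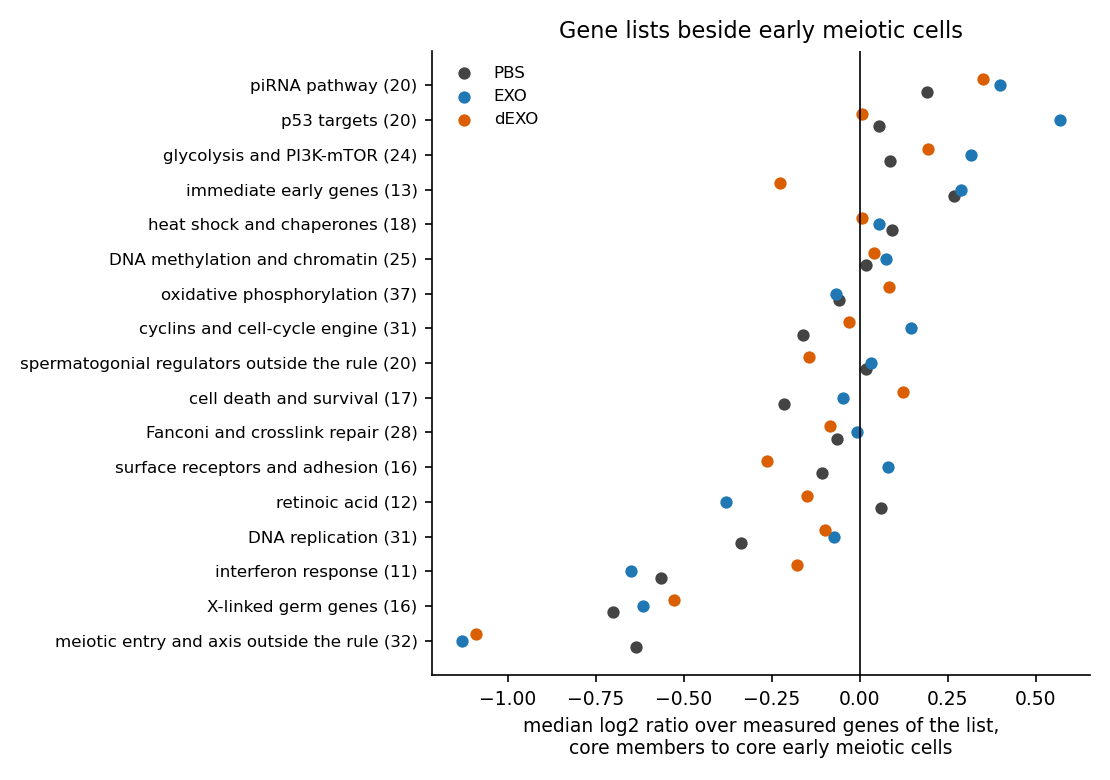
Each row is 1 gene list with its number of measured genes, and each point the median log2 ratio of CPM, core cells to early meiotic cells, in 1 library. The list of meiotic entry and axis genes lies furthest left in EXO and dEXO, at -1.13 and -1.09, and in PBS the X-linked list does, at -0.70.

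Among the retinoic acid genes, 12 of 23 were measured. Rec8, a meiotic cohesin induced by retinoic acid, was at least 2-fold lower in all 3 libraries, at 4.45, 13.4 and 16.3 CPM against 29.8, 42.6 and 38 in early meiotic cells. The receptor genes Rara (35.6, 37.6 and 23.5 CPM) and Rxrb (133, 86 and 79.6) were present at levels above those of early meiotic cells (24.9, 16.5 and 16.7, and 55.7, 46.8 and 48.4) without reaching 2-fold in all 3. Stra6 and Cyp26a1, an uptake receptor and a degrading enzyme, were too rare to measure.

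Of the spermatogonial regulators outside the rule, 20 of 34 were measured, and 2 were higher and 2 lower by 2-fold in all 3 libraries. Lin28a and Pou3f1 were the higher ones. The lower ones were Elavl2, an RNA-binding protein, at 97.9, 145 and 115 CPM against 238, 320 and 274, and Dmrtc2, a DMRT factor of pachytene cells, at 4.45, 5.38 and 5.87 against 17.7, 28.9 and 32.9. Sox3, a progenitor factor, stood at 97.9, 64.5 and 94.6 CPM against 57.1, 40.6 and 49.3, with log2 ratios of 0.78, 0.67 and 0.94. Sohlh2, the partner of SOHLH1, stood at 48.9, 69.9 and 67.8 against 46.7, 51.4 and 48.7. The 20 measured genes had medians of 0.02, 0.03 and -0.15, and the 2 higher and 2 lower genes stand beside 1.06% and 2.05% of all genes.

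Proliferation genes were expressed in the core cells at about the level of early meiotic ones. The cyclins and cell-cycle engine list summed to 5139, 5284 and 5260 CPM, against 824, 880 and 846 in cells with no germ gene. Of its 31 measured genes none was 2-fold higher and 3 were 2-fold lower in all 3 libraries than in early meiotic cells: Ccne2 (53.4, 110 and 77 CPM against 147, 242 and 198), Cdkn2c (4.45, 5.38 and 9.78 against 26.3, 32.6 and 35.9) and Cdkn2d (4.45, 29.6 and 30.7 against 50.2, 82.7 and 83.1), the last pair being inhibitors of the cyclin D kinases. Ccnb1, the mitotic cyclin B, stood at 271, 169 and 232 CPM against 181, 119 and 141. The DNA replication list had none of 31 genes 2-fold apart in all 3 libraries, but 16 were lower and 4 higher in each. Its sum was 3640, 3676 and 3810 CPM.

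Among genes of DNA methylation and chromatin, 25 of 28 were measured, none was 2-fold higher in all 3 libraries and 2 were 2-fold lower, the histone demethylase Phf8 and the Polycomb gene Scmh1. Dnmt3b, a de novo methyltransferase, stood at 138, 105 and 162 CPM against 82, 45.2 and 63.5 in early meiotic cells, which is under 2-fold in PBS only. The maintenance enzyme Dnmt1 stood at 392, 368 and 305 against 377, 339 and 336. In the piRNA pathway, which silences transposons in the germ line, 20 of 23 genes were measured, and 10 were higher and 4 lower in each library. Henmt1, the methyltransferase that protects piRNA ends, was the 1 gene at least 2-fold higher in all 3, at 62.3, 40.3 and 38.5 CPM against 26.3, 16 and 17.9. Mybl1, the A-MYB factor of pachytene piRNA genes, was the 1 gene 2-fold lower, at 4.45, 10.8 and 0 CPM against 15.2, 25.3 and 24.1, the 0 being taken as 3 counts in the ratio. The piRNA medians were 0.19, 0.40 and 0.35.

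Of 20 measured p53 targets, 7 were higher and 3 lower in each library than in early meiotic cells, and the median log2 ratios were 0.05 in PBS, 0.57 in EXO and 0.01 in dEXO, beside -0.05, 0.02 and -0.02 over all genes. The list's median was furthest from that of all genes in EXO. Among the targets 1 was 2-fold lower in all 3 libraries, the nucleotide excision repair gene Ddb2 (40, 59.2 and 39.8 CPM against 84.5, 131 and 118). Bax, a pro-apoptotic target, stood at 405, 532 and 442 CPM against 334, 269 and 280. None of 28 Fanconi and crosslink repair genes, of 17 cell death and survival genes, of 13 immediate early genes or of 18 heat shock and chaperones genes was 2-fold apart in all 3 libraries. Their medians were -0.06, -0.01 and -0.08 for the Fanconi list, -0.21, -0.05 and 0.12 for cell death and survival, 0.27, 0.29 and -0.23 for immediate early genes, and 0.09, 0.06 and 0.01 for heat shock. Of the immediate early genes 3 were higher and none lower in each library. They summed to 966, 861 and 868 CPM in core cells and to 5283, 4280 and 3842 in cells with no germ gene. Surface receptors and adhesion (16 measured) and glycolysis and PI3K-mTOR (24 measured) had none either, and oxidative phosphorylation (37 measured) had 1 lower, Ndufa1, a complex I subunit, at 138, 218 and 147 CPM against 313, 485 and 332.

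Core cells with at least 1 undifferentiated gene (8 in PBS, 14 in EXO, 67 in dEXO) were set beside those with none and with 1 or 2 meiotic genes (6, 15 and 36). The spermatogonial regulators outside the rule summed to 1788 CPM (1592 to 2002), 1612 (1436 to 1804) and 1598 (1525 to 1674) in the first stratum and to 1436 (1129 to 1800), 1386 (1213 to 1577) and 1348 (1233 to 1472) in the second. The second was lower in each library, with intervals apart in dEXO only. The list meiotic entry and axis outside the rule summed to 3896 (3604 to 4205), 3991 (3710 to 4287) and 4050 (3934 to 4169) CPM in the first stratum and to 3810 (3299 to 4378), 5029 (4694 to 5381) and 4318 (4110 to 4535) in the second. Its intervals lay apart in EXO only, where the second stratum was higher. The cyclins and cell-cycle engine list summed to 5394, 5380 and 5487 against 4403, 5131 and 4672. Core cells with neither an undifferentiated nor a meiotic gene were too few to describe, at 1, 3 and 6.

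Comparisons between libraries over all chosen cells read mostly late-type RNA, since those cells supplied 73.3% of the UMIs. A gene needed 50 UMIs over both libraries. For EXO against PBS, 470 of 7882 genes (5.96%) were at least 2-fold higher and 205 (2.6%) lower. For dEXO against PBS, 2485 of 11404 (21.8%) were higher and 1009 (8.85%) lower, and for dEXO against EXO 470 of 11676 (4.03%) were higher and 303 (2.6%) lower. Scaled to the median gene instead of the total, which moved all values by 0.125, 0.417 and 0.154 on the log2 scale, the counts became 335 higher and 352 lower, 1000 higher and 1770 lower, and 272 higher and 447 lower. The split between higher and lower genes thus moved with the scaling. The leading genes for EXO against PBS were Cst12 (249 against 0.648 CPM), Cst9, Defb36 and Rhox8, known from Sertoli cells, and Etd. In EXO, Cst12 stood at 13.4 CPM in the core and 5.21 in late-type cells, and Defb36 at 0 and 0.651. Most EXO UMIs of both genes thus came from the 4 somatically marked cells. For dEXO against EXO they began with the protamines Prm2 (339 against 57.3 CPM) and Prm1 (456 against 113).

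In the core cells fewer genes were measured and a smaller share of them was 2-fold apart. For EXO against PBS, 40 of 2613 genes (1.53%) were higher and 24 (0.918%) lower. For dEXO against PBS, 287 of 6011 (4.77%) were higher and 80 (1.33%) lower, and for dEXO against EXO 133 of 6316 (2.11%) were higher and 66 (1.04%) lower. The median log2 ratios over all genes were 0.02, 0.05 and 0.01. More genes were measured against dEXO because it held 109 core cells with 1533238 UMIs, beside 371888 UMIs in EXO and 224741 in PBS. The comparisons share libraries, and those with PBS rest on its 15 core cells.

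P3h3, at chr6:124841089-124857752 on the minus strand, ranked first above PBS in both other libraries, by the interval bound nearest 0. It encodes prolyl 3-hydroxylase 3, an enzyme of collagen modification. P3h3 stood at 35.6 CPM in PBS, 395 in EXO and 397 in dEXO core cells, with UMIs in 4 of 15, 19 of 32 and 67 of 109 cells. The log2 ratio was 3.47 (exact interval 2.46 to 4.71) for EXO against PBS and 3.48 (2.49 to 4.70) for dEXO against PBS. Per cell the medians were 0, 0.975 and 1.19 UMIs per 10000 and the highest cells 4.02, 34.7 and 65.8, so the libraries overlapped at low values and cells above 4.02 came from EXO and dEXO. Without the highest cell of each library the log2 ratios were 4.01 and 4.32, and without the 2 highest 4.63 and 4.96. In early meiotic cells P3h3 was at 124, 95.1 and 144 CPM, and EXO was the lowest library there.

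Tex10, at chr4:48430858-48473459, stood at 89 CPM in PBS, 264 in EXO and 203 in dEXO, with UMIs in 9, 25 and 94 core cells. Its product belongs to a complex that acts in ribosome maturation. The log2 ratio of EXO to PBS was 1.57 (0.86 to 2.34), 1.59 without the highest cell of each library and 1.86 without the 2 highest. Per-cell medians were 0.836, 2.09 and 1.85 UMIs per 10000, with highest values of 3.6, 8.64 and 5.58. Nr2c2ap, a nuclear receptor partner, stood at 44.5, 143 and 95.2 CPM, and the mitochondrial carrier gene Slc25a39 at 44.5, 121 and 172. Nr2c2ap was detected in 22 of 32 EXO and 65 of 109 dEXO cells against 6 of 15 in PBS. For Slc25a39 these were 21 of 32 and 90 of 109 against 7 of 15. Late-type cells held more Slc25a39, at 383, 539 and 536 CPM, and the part of late RNA in its core levels was not tested.

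Coq4, at chr2:29787493-29797935, a gene of coenzyme Q synthesis, ranked first below PBS in both other libraries by the same measure. It stood at 205 CPM in PBS, 21.5 in EXO and 29.3 in dEXO, with UMIs in 5 of 15, 7 of 32 and 35 of 109 core cells. The log2 ratios were -3.25 (-4.54 to -2.15) and -2.80 (-3.43 to -2.18). All 3 medians were 0 and the highest cells held 23.9, 2.06 and 2.3 UMIs per 10000; 42 of the 46 PBS UMIs came from 2 cells. Without the highest cell of each library the ratios were -2.80 and -2.07, and without the 2 highest cells the levels were 19.5, 14.2 and 26 CPM and the ratios -0.46 and 0.41. The PBS level thus rested on 2 cells.

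Lars2, at chr9:123366927-123462666, encodes the mitochondrial leucyl-tRNA synthetase and had a wide range among cells. It stood at 903 CPM in PBS, 503 in EXO and 251 in dEXO, with medians of 5.54, 2.1 and 1.22 UMIs per 10000 and highest cells of 64.6, 84.3 and 83.3. The log2 ratio of dEXO to PBS was -1.85 (-2.10 to -1.59), -1.58 without the highest cell of each library and -1.20 without the 2 highest. In early meiotic cells Lars2 stood at 243, 79.3 and 135 CPM, so PBS was highest there too. The core cells' median mitochondrial share was 4.17% in PBS, 2.15% in EXO and 2.41% in dEXO, and its part in the Lars2 values was not tested. Hivep2, a zinc-finger gene, stood at 125, 8.07 and 19.6 CPM, with UMIs in 5, 3 and 19 cells.

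**Figure D5:**
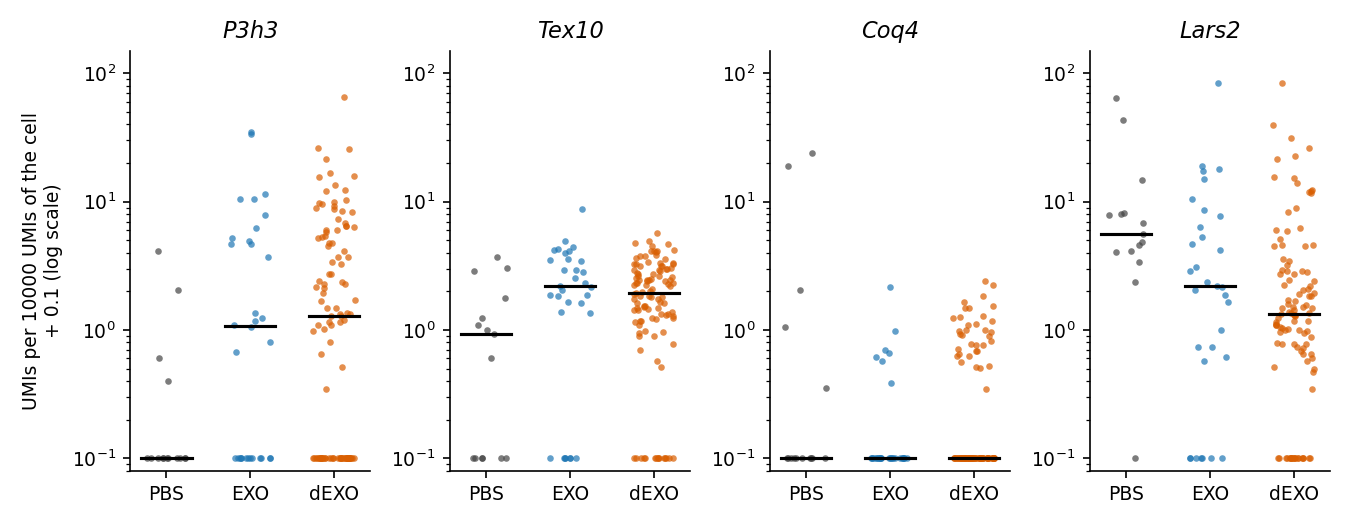
Each point is 1 core cell and each panel 1 gene; the y axis is UMIs per 10000 UMIs of the cell plus 0.1 on a log scale, and black bars are medians. P3h3 has cells above 4.02 in EXO and dEXO alone, Coq4 is at 0 in most cells of all 3 libraries, and Lars2 has medians of 5.54, 2.1 and 1.22.

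Several other genes picked by the same rule drew many of their UMIs from 1 or 2 cells. Nol4l (178, 48.4 and 40.4 CPM) owed 33 of its 40 PBS UMIs to 1 cell, and its log2 ratios moved from -1.88 to -0.62 and from -2.14 to -0.90 without the highest cell of each library. Nkx6-3, with a log2 ratio of dEXO to EXO of -6.04, had all 48 EXO UMIs in 1 cell. Soat2, at 3.66 for dEXO against EXO, had 43 of its 52 dEXO UMIs in 1 cell and 1 UMI in EXO; without the highest cells 9 were left in dEXO and 0 in EXO, which gives no direction. Olfr655, at 125, 444 and 340 CPM, was found in 6, 9 and 27 cells, and 1 cell held 43.6% to 57.1% of its UMIs in each library. Its log2 ratios to PBS were 1.83 for EXO and 1.45 for dEXO. They were 1.96 and 1.51 without the highest cell of each library, and 1.26 and 2.16 without the 2 highest. Of 30 such gene comparisons, 25 had UMIs in both libraries without the highest cells; 18 of these were then still at least 2-fold apart in the same direction, and 15 were without the 2 highest cells.

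Between dEXO and EXO the genes named by the rule included 2 of the genes that chose the cells. Egr4, an early growth response factor of the U set, stood at 26.7 CPM in PBS, 8.07 in EXO and 50.2 in dEXO, with UMIs in 2, 3 and 29 cells. Its log2 ratio of dEXO to EXO was 2.64 (1.04 to 4.95), from 3 EXO UMIs. Hormad1, a meiotic axis protein, stood at 53.4, 75.3 and 22.8 CPM with a ratio of -1.72 (-2.48 to -0.95). Cdkn1c, the cell-cycle inhibitor p57, stood at 44.5, 2.69 and 35.2 CPM, with 1 EXO UMI and a ratio of 3.71 (1.17 to 9.04). Cul9, a cullin, stood at 17.8, 8.07 and 65.9 CPM. The levels of Egr4, Cdkn1c and Cul9, the last with 3 EXO UMIs, rest on few molecules in EXO, as the wide intervals of Egr4 and Cdkn1c show. Hormad1 had 28 UMIs in EXO and 35 in dEXO, and its ratio was -1.51 without the highest cell of each library.

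For EXO against PBS, the gene lists held 5 genes at least 2-fold apart in the core cells, beside 1.53% higher and 0.918% lower over all genes. Pou3f1 (80.7 against 182 CPM) and the cyclin gene Ccnd2 (64.5 against 156) were lower. Ccne2 (110 against 53.4), the p53 regulator Mdm2 (121 against 57.8) and the repair gene Brca1 (137 against 62.3) were higher. For dEXO against PBS Ccnd2 was again lower, at 70.4 CPM with a log2 ratio of -1.14 (-1.71 to -0.55), beside 1.33% of all genes lower. The list genes 2-fold apart there also included Sdhd, a subunit of complex II, which was lower. Dnmt3a, Pnldc1, Ccng1, Cox6b2, Hk1 and Ldha were higher with 2 to 9 PBS UMIs each, beside 4.77% of all genes higher. The medians of the larger lists lay near those of all genes: 0.20 for EXO and 0.11 for dEXO against PBS over 12 and 18 measured meiotic entry genes, and 0.00 and 0.10 over 19 and 28 DNA replication genes.

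The p53 targets summed to 1228 CPM (1087 to 1382) in PBS, 1659 (1531 to 1795) in EXO and 1257 (1201 to 1314) in dEXO core cells. One EXO cell held 98 of the 617 EXO UMIs of this list (15.9%), and without the highest cell of each library the sums were 1239, 1439 and 1255. Cdkn1a, the p21 cell-cycle inhibitor, stood at 8.9, 59.2 and 7.17 CPM, with 11 of its 22 EXO UMIs in 1 cell. Interferon genes were at 316, 293 and 262 CPM in sum. For dEXO against EXO, 11 list genes were 2-fold apart, beside 2.11% of all genes higher and 1.04% lower. They included Fos (32.6 against 72.6 CPM) and the BMP receptor Bmpr2 (34.6 against 94.1), both lower in dEXO. Of 5 measured immediate early genes, Fos was the 1 lower in dEXO and 4 were higher. The testis chaperone Hspa2 (75 against 29.6) and the retinaldehyde dehydrogenase Aldh1a1 (50.9 against 24.2) were higher. With 1 library per group these values describe 3 libraries.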

How the data were processed

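The deposited matrices give unnormalized UMI counts for each gene in each barcode. Per the file headers they come from Cell Ranger 5.0.1. Seurat and GRCm38 are named in the submitters' processing notes without a stated role. Per the labels' protocols the chemistry was 10x Chromium 3'. The extraction text of those labels speaks of aorta, while the tissue is labelled testis and the files hold germ and Leydig genes. All 55450 genes matched GENCODE M21 (GRCm38) in identifier and symbol, and 1 of 73 genes with coordinates shared exon bases with another gene on its strand. The libraries held 97253862, 91787154 and 96655663 UMIs in 5514, 10228 and 9760 barcodes (PBS, EXO, dEXO); 276, 1042 and 1378 barcodes under 1000 UMIs and 186, 205 and 382 over 20% mitochondrial UMIs were removed.

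UMIs were summed over cells of a library and scaled to 1000000 (CPM). Ratios carry exact conditional binomial intervals, levels exact Poisson intervals and shares Clopper-Pearson intervals, all at 95%. In ratios, 3 counts stood in for a count of 0. With 1 library per group nothing was tested, and 2-fold was the limit for a call. The scripts were tested on simulated data. Members, 17 gene lists (6 symbols were not in the files) and rules were chosen with earlier results of these data known. The genes named between libraries were the 5 highest and 5 lowest by the interval bound nearest 0, at 50 UMIs or more, without mitochondrial, ribosomal, haemoglobin and clone-named genes and with at least 0.25 of the highest level in other cell groups. Beside early meiotic cells they were the 8 highest and 8 lowest by the smallest of the 3 ratios, and from each list up to 5 by level and 4 by difference. Genes of lists that were 2-fold apart but outside these were chosen after their values were seen, as was the split into core, late-type and somatically marked cells. Some genes of the lists are not reported here.

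Doublets were kept. Scrublet in scanpy 1.11.5 called 7, 142 and 3 cells, where loading would give 4.04%, 7.18% and 6.4%, so it did not work in PBS and dEXO; removing the 204, 645 and 512 highest scores took 0, 4 and 19 members and was an alternative. Each pair of libraries shared 19 barcodes, of which 1 belonged to a member. Scripts ran in Python 3.11.15 with pandas 2.3.3, scipy 1.17.1, numpy 2.4.6 and, for plots, matplotlib 3.10.9.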

Additional observations from a re-analysis of the deposited data

How the results depend on the processing

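No paired analysis was possible because each group is 1 library. Leaving out the late-type and somatically marked cells and leaving out the highest cells were chosen after seeing the data. The shares of chosen cells (PBS 0.396%, EXO 0.512%, dEXO 1.96%) moved as follows. Thinned to 3000 UMIs they were 1.085%, 1.188% and 3.51%, in a set that cells over the meiotic limit at full depth can enter. With fewer than 2 meiotic genes the shares were 0.1584%, 0.1559% and 0.8875%. With 4 germ genes EXO and dEXO were at 0.3006% and 1.438%, with D of at least 3 at 0.334% and 1.525%, and as core cells alone at 0.3563% and 1.363%; with cells of at least 2000 UMIs dEXO was at 2.559%. dEXO was highest under each of these that gave a value for all 3 libraries.

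Counts of genes at least 2-fold apart over all chosen cells moved with the filter and depth. For EXO against PBS they were 1641 at 20 UMIs, 139 at 200 UMIs, 40 thinned and 64 in core cells. For dEXO against PBS they were 1351 at 200 UMIs, 269 thinned and 367 in core cells, and for dEXO against EXO 1644 at 20 UMIs, 157 at 200 UMIs, 71 thinned and 199 in core cells. Beside undifferentiated cells, of which there were 2, 5 and 10, 43 genes were higher and 0 lower; the total was 18 at 50 UMIs, 10 thinned, and 307 to 566 without 1 library. Beside early meiotic cells 664 were higher and 600 lower; the total was 75 thinned, 305 without cells rich in other cells' genes, and 1453 to 4009 without 1 library (4009 without dEXO).

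Signs turned in these values. The cell death and survival median for dEXO against PBS was -0.19 thinned. Between the strata of PBS, with and without undifferentiated genes, core cells alone gave -0.32 for spermatogonial regulators outside the rule, -0.0845 for surface receptors and adhesion (-0.82 thinned), -0.29 for cyclins, -0.30 for DNA methylation, -0.12 for Fanconi genes and -0.0729 for heat shock genes. Without the 2 highest cells of each library Coq4 for dEXO against PBS was 0.41, and Nol4l was 1.34 for EXO and 1.45 for dEXO against PBS, with 1 PBS UMI left. Of the 30 ratios of named genes, 5 gave no value without the highest cells because a library was left with none. The cause was not tested. Fewer cells or genes entered each of these. Of 220 list medians under alternatives, 1 turned its sign.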
